A study of Arabidopsis thaliana with 18 samples.

Results

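Among 22746 non-control probe sets on the ATH1 array of *Arabidopsis thaliana*, 66 rose by at least 1 on the log2 scale in systemic leaves of both the wild type and *bak1-5* after *Psm*, but by less than 0.75 in *lecrk-VI.2-2*. The change is the mean of 3 *Psm* arrays minus the mean of 3 MgCl2 arrays of the same genotype, so a change of 1 is a doubled signal. These limits were met by 69 probe sets, and 3 of them (*PR1*, *WRKY54* and *NUDT6*) were left out by name. The members were thus chosen by the log2 changes themselves. Because all 18 arrays entered the choice, the values below describe the group, and none of the differences between its genotypes is an independent test of it.

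*Psm* is the leaf bacterium *Pseudomonas syringae* pv. *maculicola*. Plants 4 weeks old received *Psm* at an OD600 of 0.002 in 10 mM MgCl2, or 10 mM MgCl2 alone, in 3 lower leaves. After 48 hr, upper, uninfected leaves of 12 plants were collected and mixed for each sample. The 6 groups were the wild type Col-0, *bak1-5* and *lecrk-VI.2-2*, each with both treatments and 3 arrays, with pooled plants behind every array. *lecrk-VI.2-2* is a T-DNA insertion line that the study describes as a knockdown and not a null mutant of *LecRK-VI.2*. *bak1-5* is a point-mutant allele of *BAK1*, still transcribed, and known as impaired in immune signaling but not in brassinosteroid growth responses. Each mutant is 1 allele.

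Systemic acquired resistance (SAR) is the immunity that develops in distant leaves after a local infection. It rests on mobile signals, salicylic acid (SA) and the transcription of defense and secretory-pathway genes. *LecRK-VI.2* encodes an L-type lectin receptor kinase of the plasma membrane, and *BAK1* a coreceptor kinase that many immune receptors recruit. The 6-group comparison addresses which parts of the systemic response differ when one or the other is altered.

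The signals of both mutated genes were low. The probe set of *LecRK-VI.2* (AT5G01540) read between 5.44 and 5.91 in the 18 arrays. Its means in *lecrk-VI.2-2* were 5.56 ± 0.04 (SD, n = 3) after MgCl2 and 5.59 ± 0.12 after *Psm*, against 5.48 ± 0.06 and 5.84 ± 0.06 in the wild type. All wild-type arrays were thus above those of both mutants after *Psm*, while after MgCl2 the arrays of *lecrk-VI.2-2* were not below the wild type. Where this probe set lies relative to the insertion is not given in the sources used here, so it does not check the labels. *BAK1* (AT4G33430) read between 5.19 and 6.06, and a point mutation need not alter it. Of 6 leaf markers, 1 was assigned to a single gene, *RCA* of photosynthesis, with a mean signal of 12.70, and the 2 root markers assigned averaged 3.23 and 3.60. Of 3 guard cell markers 1 was assigned, *FMA* (AT3G24140), with a mean signal of 5.20. Markers of epidermis, vascular tissue and dividing cells were not assigned and were not analysed here. As leaves are mixtures, fewer cells of a type and less RNA per cell cannot be told apart.

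By the share of bright probe sets, a pair of *lecrk-VI.2-2* arrays stood apart before any result. In the second MgCl2 array 16.0% of probe sets had a signal of 6 or more, and in the third *Psm* array 16.8%, against 18.2% to 19.6% in the other 16 arrays. The second MgCl2 array was the lowest of its group for 52 of the 66 members and for 57.6% of all probe sets, and the third *Psm* array for 56 members and 58.5%. The low MgCl2 array raises the computed change in *lecrk-VI.2-2*, and the low *Psm* array lowers it. The range of changes in this genotype is therefore also given for the larger gene lists without both arrays, called weak below. The third *bak1-5* *Psm* array had the lowest median signal of the 18 arrays, 4.45, but 18.2% of probe sets at 6 or more. It is not among those called weak and is described further below.

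The median change of the 66 members was 1.50 in the wild type, 1.19 in *bak1-5* and 0.58 in *lecrk-VI.2-2*. Over all probe sets the medians were -0.04, -0.04 and -0.001. In the wild type the members ran from 1.01 to 3.46, in *bak1-5* from 1.00 to 3.09 and in *lecrk-VI.2-2* from 0.33 to 0.75. The standard error of a change, from the spread shared by the 6 groups, was 0.20 in the median member and at most 0.52. In folds, the median member rose 2.83-fold in the wild type, 2.28-fold in *bak1-5* and 1.50-fold in *lecrk-VI.2-2*. Without both weak arrays the median in *lecrk-VI.2-2* was 0.58, with a range from 0.14 to 1.16.

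**Figure D1:**
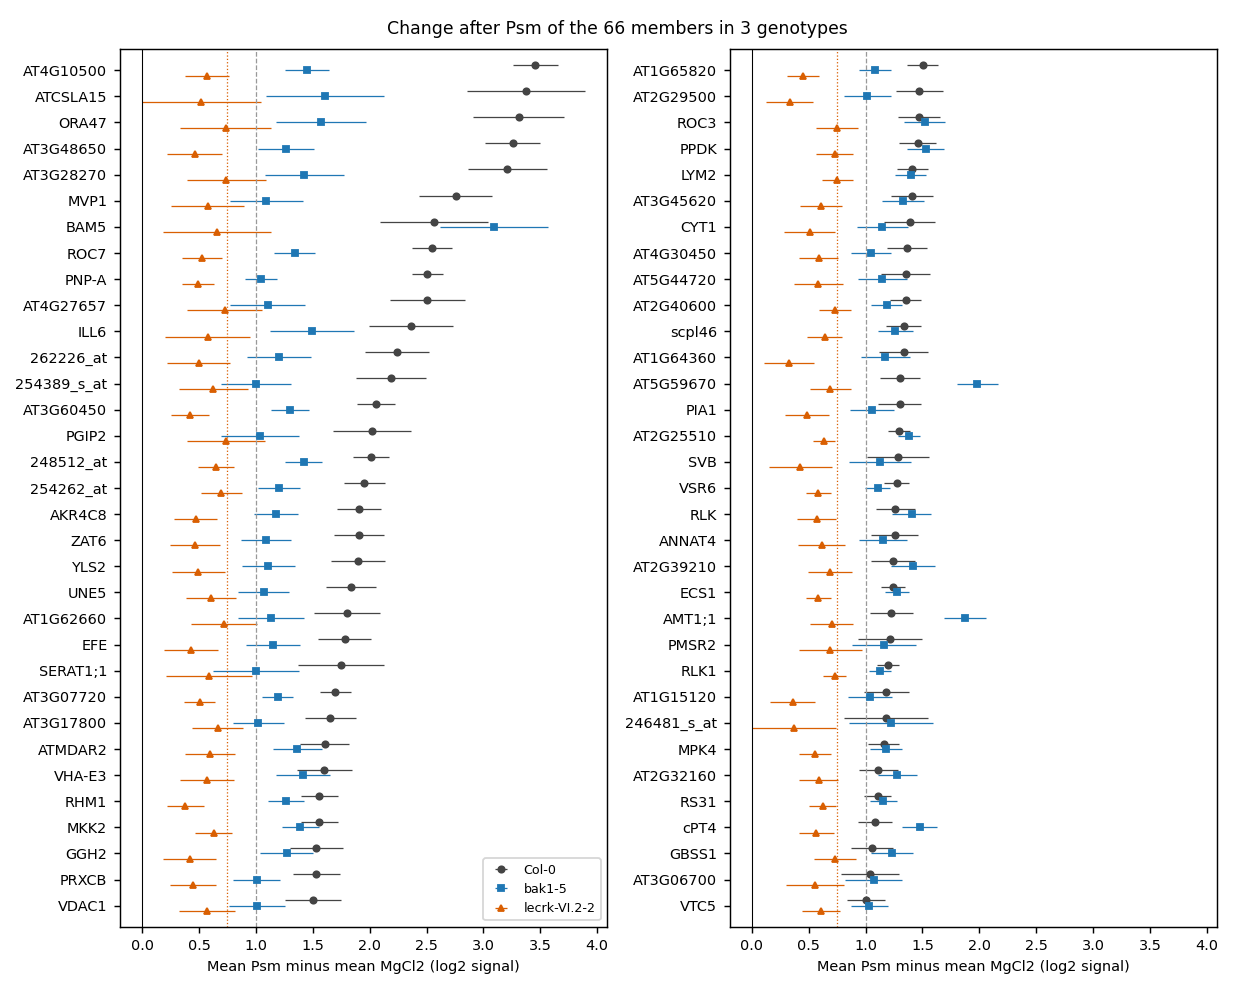
Change after *Psm* (mean of 3 *Psm* arrays minus mean of 3 MgCl2 arrays, log2 signal) of the 66 members, ordered by the wild type, in Col-0 (circles), *bak1-5* (squares) and *lecrk-VI.2-2* (triangles), with bars for 1 standard error of the fit. Dashed and dotted lines mark the limits of 1 and 0.75. Members ran from 1.01 to 3.46 in the wild type and from 1.00 to 3.09 in *bak1-5*. In *lecrk-VI.2-2* they ran from 0.33 to 0.75, where the limit caps them.

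In the limma fit, all 66 members were higher after *Psm* in the wild type at a *q* value of 0.05 or less, where 7.36% of all probe sets were. In *bak1-5* 61 were, against 4.08% of all. The remaining 5 were *ATCSLA15*, *PGIP2*, *SERAT1;1* and the probe sets 254389_s_at and 246481_s_at. In *lecrk-VI.2-2* 8 members were higher, against 0.607% of all: *PPDK*, *LYM2*, AT2G40600, AT2G25510, *VSR6*, *ECS1*, *RLK1* and *RS31*. Their number was 3 without the second *Psm* array of that mutant and 17 without the third, 37 with array weights and 0 in a fit of only the arrays compared. Since the limits set these changes, nothing is read from the counts.

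The limits place the members between the genotypes, but the members did not stay at 0 in *lecrk-VI.2-2*. All 66 had a change above 0 there and 48 had 0.5 or more. The 3 *Psm* arrays lay above the 3 MgCl2 arrays in 38 members, against 4.88% of all probe sets. The same count was 66 in the wild type (15.1% of all) and 65 in *bak1-5* (10.7% of all), the exception being *ATCSLA15*. A description of these genes as needing LecRK-VI.2 goes further than the values, and they are called here by their limits.

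The direct contrast of both mutants uses the changes that chose the members, so it describes them and does not test them. The change in *bak1-5* exceeded that in *lecrk-VI.2-2* by 0.30 to 2.43, with a median of 0.68 and a median standard error of 0.28. In the limma test of this difference 0 of 66 members passed a *q* value of 0.05, against 0.0132% of all probe sets. An unadjusted p below 0.05, with the larger change in *bak1-5*, was found in 38 members and in 599 of all 22746 probe sets. As only 3 of all probe sets passed the *q* value, the 0 does not set the members apart. The number passing was 22 with array weights and 10 without both weak arrays. Shares of all probe sets were computed for the main fit only. Counts under other settings, here and below, are therefore not read as results about the members. The excess of the wild-type change over that of *lecrk-VI.2-2*, with a median of 1.00, passed in 20 members, against 1.11% of all. That count was 11 without the first *lecrk-VI.2-2* *Psm* array and 40 without the second *lecrk-VI.2-2* MgCl2 array, 42 with array weights and 36 with cyclic loess.

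The response in *bak1-5* was close to that of the wild type in some members and well below it in others. As a percentage of the wild-type change it had a median of 82.8% and ran from 38.8% to 153%. In 30 members the genotypes differed by no more than 0.25, and in 17 the value was larger in *bak1-5*. Members with the largest wild-type changes kept least in *bak1-5*: among the 16 with a wild-type change of 2 or more the median was 47.6%, and among the 32 below 1.5 it was 100.3%. In *lecrk-VI.2-2* the corresponding medians were 22.1% and 48.8%. Such ratios share their denominator with the order of the members, and the limits bound them.

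The difference between the wild type and *bak1-5* passed *q* of 0.05 in 4 members, against 1.07% of all probe sets: AT4G10500, AT3G48650, *ROC7* and *PNP-A*. The count was 12 with array weights, 9 in a fit of only the arrays compared, 7 without both weak arrays and 8 without the second *Psm* array of either mutant. It was 2.01 ± 0.27 (SE) for AT4G10500 and 1.99 ± 0.34 for AT3G48650. For *PNP-A* it was 1.46 ± 0.20, and for *ROC7* 1.21 ± 0.25. In the opposite direction 0 passed, against 0.308% of all. At an unadjusted p below 0.05 there were 2 members and 944 of all 22746 probe sets, so the 2 do not set the members apart. The genes furthest that way were AT5G59670, whose change was 1.30 in the wild type and 1.98 in *bak1-5*, and *AMT1;1*, with 1.23 and 1.87. *BAM5* (2.57 and 3.09) and *cPT4* (1.09 and 1.47) also differed by 0.3 or more in this direction.

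The lower change in *lecrk-VI.2-2* can lie in the *Psm* leaves or in the MgCl2 leaves, and the members differed in this. After *Psm* their signal in *lecrk-VI.2-2* was below the wild type by a median of 1.04, with 34 members lower by 1 or more and 49 passing *q* of 0.05 (4.73% of all). No share of all was computed for the 34. After MgCl2 the median difference was 0.00, with 33 members higher and 33 lower. In limma 0 passed (0% of all higher and 0% lower). At an unadjusted p below 0.05 there were 5 members, all higher, while 323 of all 22746 probe sets were higher and 664 lower. Between *bak1-5* and the wild type after MgCl2 0 passed in limma too (0.0528% of all higher and 0.0044% lower). At an unadjusted p below 0.05 there were 3 members higher and 2 lower, against 534 and 378 of all. In all but 5 members over 50% of the gap from the wild type thus lay after *Psm*.

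In 4 members, by contrast, over 50% of the difference from both other genotypes was already in the MgCl2 arrays: *ECS1*, *AMT1;1*, AT2G25510 and AT2G32160. *ECS1*, a gene for a small cell wall protein, had one of the highest signals of the group, 11.81, 11.62 and 11.71 after MgCl2 and 13.00, 12.92 and 12.95 after *Psm* in the wild type. In *bak1-5* it read 11.81, 11.50 and 11.50 after MgCl2 and 12.91, 12.86 and 12.85 after *Psm*. The *lecrk-VI.2-2* arrays read 12.39, 11.91 and 12.20 after MgCl2 and 12.71, 12.81 and 12.73 after *Psm*. The *Psm* means of the 3 genotypes thus lay close together (12.95, 12.87 and 12.75), while all *lecrk-VI.2-2* MgCl2 arrays were above all MgCl2 arrays of the other genotypes. How far an array resolves differences at signals near 13 was not tested. For *AMT1;1*, which takes up ammonium, the wild type read 6.77, 6.34 and 6.51 after MgCl2 and 7.63, 7.76 and 7.91 after *Psm*, *bak1-5* 6.31, 6.22 and 6.42 after MgCl2 and 8.23, 7.94 and 8.41 after *Psm* and *lecrk-VI.2-2* 7.42, 6.47 and 7.19 after MgCl2 and 7.66, 7.98 and 7.55 after *Psm*. Its *lecrk-VI.2-2* *Psm* mean was 0.04 below the wild type and its MgCl2 mean 0.49 above. The weak MgCl2 array was here the lowest of its group, so the elevation was larger in the other arrays.

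AT2G25510 read 11.80, 11.63 and 11.89 after MgCl2 and 13.07, 12.97 and 13.17 after *Psm* in the wild type, 11.66, 11.61 and 11.50 after MgCl2 and 12.95, 12.97 and 13.00 after *Psm* in *bak1-5* and 12.46, 12.06 and 12.33 after MgCl2 and 12.91, 12.91 and 12.93 after *Psm* in *lecrk-VI.2-2*. It was the only member of the 66 higher in *lecrk-VI.2-2* than in *bak1-5* after MgCl2 at *q* of 0.05 (0.0308% of all probe sets). Its *Psm* signals near 13 were the highest of the group, and how far an array resolves differences at such signals was not tested. AT2G32160 had MgCl2 means of 7.18, 7.24 and 7.58 in Col-0, *bak1-5* and *lecrk-VI.2-2*, and *Psm* means of 8.30, 8.52 and 8.17.

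**Figure D2:**
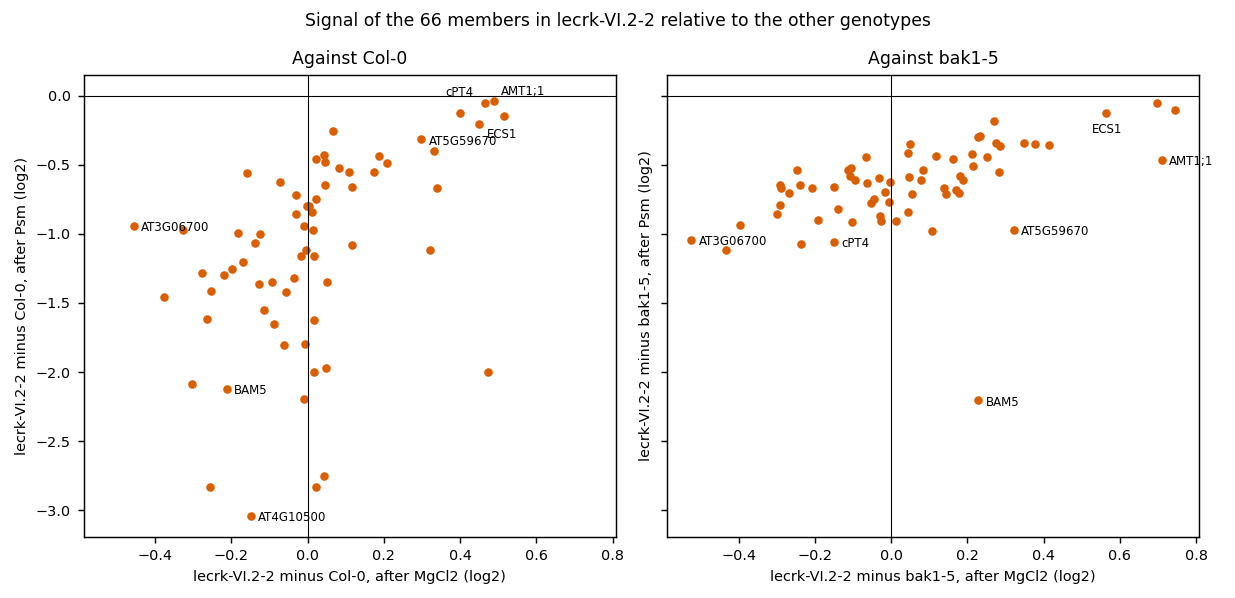
Mean signal in *lecrk-VI.2-2* minus that in Col-0 (left) or *bak1-5* (right), after MgCl2 (horizontal axis) and after *Psm* (vertical axis), in log2 units, 1 point per member. Against Col-0 the *Psm* differences run from -3.04 to -0.04, and *ECS1*, *AMT1;1* and *cPT4* lie at the upper right, with a MgCl2 signal above Col-0 and a *Psm* signal near it.

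The list of immune receptors and kinases, which also holds the phosphatase gene *PIA1*, supplied 7 of the 66. As the lists were made with the names of many members known, their member counts are not compared. Receptors and kinases act at the cell surface and in the mitogen-activated protein kinase cascades behind it. The changes of the 7 members, *PIA1* among them, ran from 1.16 to 1.56 in the wild type, 1.06 to 1.98 in *bak1-5* and 0.49 to 0.75 in *lecrk-VI.2-2* (0.36 to 0.79 without both weak arrays). In the median they kept 99.1% of the wild-type change in *bak1-5* and 47.9% in *lecrk-VI.2-2*. Of the 14 genes of the list assigned to a probe set, 12 were higher at *q* of 0.05 in the wild type, 10 in *bak1-5* and 2 in *lecrk-VI.2-2*, against 7.36%, 4.08% and 0.607% of all probe sets. The 2 were the members *LYM2* and *RLK1*. Members were chosen for such changes, and of the 7 other genes 5, 3 and 0 were higher, with median changes of 1.02, 0.23 and 0.21. The same shares of all probe sets apply to the lists below. Many gene names came from a list of the study whose part held here ends at a wild-type change of 0.33. The assigned genes of every list thus lean to genes that rose, and no excess over these shares is read from the counts.

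*LYM2* encodes a LysM protein that takes part in the chitin response. Its signals were 6.77, 6.50 and 6.81 after MgCl2 and 7.98, 8.08 and 8.25 after *Psm* in the wild type and 6.50, 6.66 and 6.39 after MgCl2 and 7.93, 7.69 and 8.11 after *Psm* in *bak1-5*. In *lecrk-VI.2-2* they were 7.13, 6.59 and 6.68 after MgCl2 and 7.54, 7.63 and 7.48 after *Psm*, with all *Psm* arrays above all MgCl2 arrays and a change just under the limit of 0.75. The probe set named *RLK* (AT2G37710) is for another L-type lectin receptor kinase, LecRK-IV.1. It read 6.47, 6.44 and 6.59 after MgCl2 and 7.54, 7.83 and 7.92 after *Psm* in the wild type, 6.34, 6.11 and 6.12 after MgCl2 and 7.72, 7.42 and 7.64 after *Psm* in *bak1-5* and 6.72, 5.91 and 6.77 after MgCl2 and 7.07, 7.20 and 6.86 after *Psm* in *lecrk-VI.2-2*. The *Psm* arrays of *lecrk-VI.2-2* were below those of the other genotypes in each case.

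AT5G59670, for a receptor-like kinase with leucine-rich repeats, had the largest excess of the change in *bak1-5* over that in the wild type, taken as a difference. Wild-type arrays read 4.22, 4.40 and 4.30 after MgCl2 and 5.28, 5.83 and 5.71 after *Psm*, and those of *bak1-5* read 4.10, 4.36 and 4.38 after MgCl2 and 6.18, 5.97 and 6.65 after *Psm*. *lecrk-VI.2-2* read 4.87, 4.21 and 4.73 after MgCl2 and 5.45, 5.24 and 5.19 after *Psm*, with its MgCl2 arrays far apart. All *bak1-5* *Psm* arrays were above all wild-type *Psm* arrays, and these above 2 of the 3 from *lecrk-VI.2-2*. After *Psm* AT5G59670 and *cPT4* were the 2 members higher in *bak1-5* than in the wild type at *q* of 0.05 (1.75% of all probe sets), while 15 were lower (2.28%).

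*MKK2* and *MPK4* encode successive kinases of a cascade that restrains defense. *MKK2* read 5.17, 5.29 and 5.61 after MgCl2 and 7.10, 6.82 and 6.83 after *Psm* in the wild type and 5.36, 4.94 and 5.20 after MgCl2 and 6.62, 6.46 and 6.59 after *Psm* in *bak1-5*. It read 5.67, 4.89 and 5.48 after MgCl2 and 6.02, 5.85 and 6.05 after *Psm* in *lecrk-VI.2-2*. The change there was 0.63, against 0.40 without the low second MgCl2 array and 0.36 without both weak arrays. *MPK4* had changes of 1.16, 1.18 and 0.55 in Col-0, *bak1-5* and *lecrk-VI.2-2*. The closely related kinase gene *MEK1* (MKK1) was just outside the wild-type limit, with 0.89, 1.12 and 0.41. Those of *RLK1* were 1.2, 1.12 and 0.73, and of the phosphatase gene *PIA1*, a dim probe set, 1.30, 1.06 and 0.49. The immune receptor gene *ZAR1* and the transporter gene *PEN3* were just outside the *bak1-5* limit, each with 0.99.

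Genes of the SA response supplied 5 members. Their wild-type changes ran from 1.24 to 3.46, those in *bak1-5* from 1.05 to 1.45 and those in *lecrk-VI.2-2* from 0.49 to 0.73 (0.40 to 0.64 without both weak arrays). All 12 assigned genes of the list were higher in the wild type and in *bak1-5*, and 5 in *lecrk-VI.2-2*. Without the members the counts were 7, 7 and 3 of 7 genes. The 5 were *DMR6*, *PR5*, *WRKY70* and the members *ECS1* and AT2G40600.

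AT4G10500 (*DLO1*), for an enzyme that hydroxylates SA, had the largest wild-type change of the group, 3.46 ± 0.19 (SE), or 11-fold. It read 3.57, 3.62 and 3.97 after MgCl2 and 7.58, 6.76 and 7.19 after *Psm* in the wild type. In *bak1-5* the arrays read 3.57, 3.56 and 3.67 after MgCl2 and 5.00, 5.51 and 4.64 after *Psm*, and in *lecrk-VI.2-2* 3.65, 3.68 and 3.38 after MgCl2 and 4.03, 4.08 and 4.31 after *Psm*. The 3 genotypes did not overlap after *Psm* and overlapped after MgCl2. *DMR6*, for the related SA hydroxylase, rose by 3.75, 2.99 and 2.18 and so lay above the *lecrk-VI.2-2* limit.

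*PNP-A*, for a secreted peptide of water and salt balance, followed the same order. It read 3.79, 3.84 and 3.66 after MgCl2 and 6.30, 6.13 and 6.38 after *Psm* in the wild type, 3.65, 3.61 and 3.72 after MgCl2 and 4.28, 4.84 and 5.00 after *Psm* in *bak1-5* and 3.84, 3.80 and 3.69 after MgCl2 and 4.22, 4.13 and 4.46 after *Psm* in *lecrk-VI.2-2*. Its *Psm* arrays did not overlap between the wild type and either mutant, and 1 *bak1-5* array lay below the highest of *lecrk-VI.2-2*. *YLS2*, a gene known from yellowing leaves, read 4.15, 4.12 and 4.46 after MgCl2 and 6.54, 5.91 and 5.97 after *Psm* in the wild type and 4.14, 4.18 and 3.74 after MgCl2 and 5.36, 5.67 and 4.37 after *Psm* in *bak1-5*. Its signals in *lecrk-VI.2-2* were 4.32, 4.29 and 4.27 after MgCl2 and 4.80, 4.93 and 4.64 after *Psm*, above the lowest *Psm* array of *bak1-5*. AT2G40600 had changes of 1.35, 1.19 and 0.73, with *Psm* arrays of 8.01, 7.55 and 7.86 in the wild type, 7.48, 7.49 and 7.69 in *bak1-5* and 7.39, 7.53 and 7.19 in *lecrk-VI.2-2*, which overlapped between the mutants.

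Jasmonate and wound genes supplied 5 members too. Jasmonate is the hormone of the wound response and acts partly against SA. Their wild-type changes ran from 1.91 to 3.31, those in *bak1-5* from 1.09 to 3.09 and those in *lecrk-VI.2-2* from 0.47 to 0.73. Without both weak arrays the *lecrk-VI.2-2* changes ran from 0.72 to 1.16, with a median of 0.82 against 0.58, and *ORA47*, *ILL6* and *MVP1* were above the limit of 0.75. Of the 13 assigned genes of the list 13 were higher in the wild type, 10 in *bak1-5* and 3 in *lecrk-VI.2-2*. The 3 were *VSP1*, *CORI3* and *CLH1*, none of them a member. Of the 8 that were not members 8, 5 and 3 were higher.

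*ORA47* encodes a transcription factor that switches on jasmonate synthesis genes. Its signals in the wild type were 6.27, 6.62 and 5.83 after MgCl2 and 9.34, 9.61 and 9.70 after *Psm*. In *bak1-5* they were 5.79, 6.71 and 6.16 after MgCl2 and 7.57, 8.62 and 7.20 after *Psm*, and in *lecrk-VI.2-2* 6.01, 6.06 and 5.88 after MgCl2 and 6.27, 7.94 and 5.94 after *Psm*. The second *Psm* array of *lecrk-VI.2-2* lay above 2 of the 3 *bak1-5* arrays, while of the other 2 in its group 1 fell within the range of the MgCl2 arrays and 1 lay slightly above it. Without that second array the *lecrk-VI.2-2* change of *ORA47* was 0.12, and without both weak arrays it was 1.16, above the limit of 0.75.

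*ILL6*, for an amidohydrolase that breaks down jasmonate conjugates, had the same shape. The wild type read 6.54, 6.53 and 6.45 after MgCl2 and 9.27, 8.76 and 8.59 after *Psm*, *bak1-5* 6.46, 6.47 and 6.54 after MgCl2 and 8.39, 8.74 and 6.82 after *Psm* and *lecrk-VI.2-2* 6.52, 6.40 and 6.58 after MgCl2 and 6.80, 7.97 and 6.46 after *Psm*. The third *bak1-5* *Psm* array was low and the second *lecrk-VI.2-2* *Psm* array high, so that the order of the mutants was reversed between these arrays. *MVP1*, for a lipase-like protein needed for normal endoplasmic reticulum (ER) shape, read 4.91, 4.69 and 4.77 after MgCl2 and 8.12, 6.95 and 7.57 after *Psm* in the wild type and 4.97, 4.76 and 4.88 after MgCl2 and 6.15, 6.50 and 5.23 after *Psm* in *bak1-5*. It read 4.80, 4.76 and 4.76 after MgCl2 and 5.01, 6.20 and 4.85 after *Psm* in *lecrk-VI.2-2*, where again the second *Psm* array stood alone.

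*BAM5*, for a beta-amylase, had the largest *bak1-5* change of the group. The wild type read 5.29, 5.50 and 5.86 after MgCl2 and 8.05, 8.85 and 7.46 after *Psm* and *bak1-5* 5.10, 4.75 and 5.47 after MgCl2 and 8.47, 9.08 and 7.05 after *Psm*. In *lecrk-VI.2-2* it read 5.14, 4.75 and 6.13 after MgCl2 and 5.78, 6.93 and 5.28 after *Psm*, with 1 MgCl2 array above 2 of the *Psm* arrays. The change was 2.57 in the wild type, 3.09 in *bak1-5* and 0.66 in *lecrk-VI.2-2*, each with a standard error of 0.48. *ZAT6*, for a stress-responsive zinc finger factor, had changes of 1.91, 1.09 and 0.47.

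The same 2 arrays stood apart in many of the 66 members. The second *lecrk-VI.2-2* *Psm* array was the highest of its group in 51 members and in 29.7% of all probe sets, and the third *bak1-5* *Psm* array the lowest of its group in 48 and in 56.8%. Without the former 38 members had a *lecrk-VI.2-2* change below 0.5, and the median was 0.45. The former was at least 0.75 above the other 2 of its group in 12 members and in 0.809% of all probe sets. The latter was at least 0.75 below its own group in 10 members and in 0.514% of all. Both held for 8 members: *ATCSLA15*, AT3G28270, *MVP1*, *BAM5*, *ILL6*, *PGIP2*, *SERAT1;1* and 254389_s_at. The value of 0.75 was chosen after these arrays were seen. For the jasmonate members the array medians after *Psm*, relative to the MgCl2 mean, were 1.35, 2.25 and 0.80 in *bak1-5* and 0.30, 1.47 and -0.04 in *lecrk-VI.2-2*. For the receptor and kinase members they were 1.42, 1.23 and 1.42, and 0.68, 0.73 and 0.55. Without the second *Psm* array the *lecrk-VI.2-2* change was 0.12 to 0.19 in the jasmonate members and 0.34 to 0.71 in the receptor and kinase members. What sets these arrays apart was not tested.

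**Figure D3:**
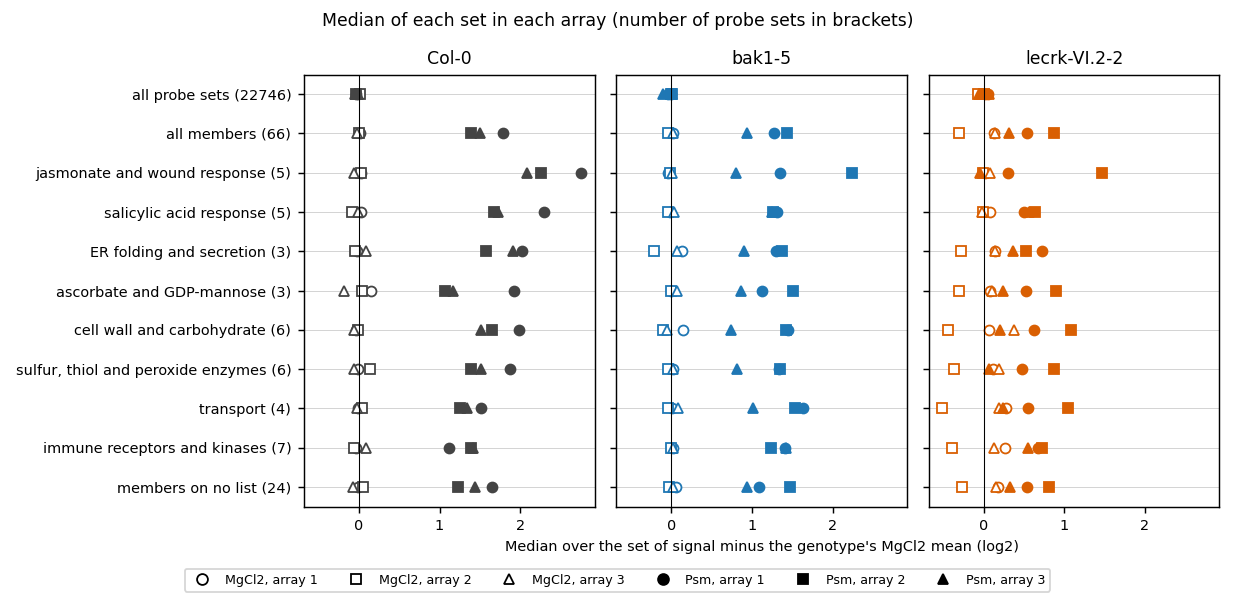
Median over each set of the signal in an array minus the genotype's mean after MgCl2 (log2), for MgCl2 arrays (open) and *Psm* arrays (filled), with symbol shape for the array number, which does not pair arrays across groups. In *lecrk-VI.2-2* the jasmonate and wound members had medians of 0.30, 1.47 and -0.04 after *Psm*, the receptor and kinase members 0.68, 0.73 and 0.55, and all probe sets stayed near 0.

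Genes of protein folding in the ER and of sorting along the secretory pathway supplied 3 members. Their *lecrk-VI.2-2* changes were 0.53 to 0.60 (0.41 to 0.60 without both weak arrays). Secreted defense proteins are folded and quality-checked in the ER. *ROC7* encodes a cyclophilin, an enzyme that turns proline bonds, of the secretory pathway. It read 4.62, 4.58 and 4.74 after MgCl2 and 7.51, 6.77 and 7.29 after *Psm* in the wild type, 4.93, 4.59 and 4.87 after MgCl2 and 6.25, 6.46 and 5.69 after *Psm* in *bak1-5* and 4.72, 4.68 and 4.68 after MgCl2 and 5.41, 5.19 and 5.06 after *Psm* in *lecrk-VI.2-2*. The *Psm* arrays of the 3 genotypes did not overlap, and in each genotype they lay above the MgCl2 arrays. *UNE5* (PDIL2-1), for a protein disulfide isomerase, read 6.14, 6.35 and 6.69 after MgCl2 and 8.42, 7.98 and 8.30 after *Psm* in the wild type and 6.65, 6.19 and 6.58 after MgCl2 and 7.65, 7.85 and 7.13 after *Psm* in *bak1-5*. Its signals in *lecrk-VI.2-2*, 6.56, 5.73 and 6.51 after MgCl2 and 7.13, 6.90 and 6.58 after *Psm*, were below all wild-type arrays after *Psm* and reached only the lowest of *bak1-5*.

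*VSR6*, for a receptor that sorts proteins to the vacuole, had even signals, 5.16, 5.21 and 5.05 after MgCl2 and 6.36, 6.52 and 6.36 after *Psm* in the wild type, 4.90, 5.01 and 4.94 after MgCl2 and 6.25, 6.03 and 5.89 after *Psm* in *bak1-5* and 5.33, 4.90 and 5.32 after MgCl2 and 5.76, 5.71 and 5.82 after *Psm* in *lecrk-VI.2-2*. Among the 21 assigned genes of the ER list 20 were higher in the wild type, 17 in *bak1-5* and 7 in *lecrk-VI.2-2*. Without the members these counts were 17, 14 and 6 of 18. Of the 18, *CRT1b*, *CRT3*, *CNX1*, *SDF2*, *ATERDJ3B*, *SHD* and *PDIL1-1* were barred from the group by name, and none of them met its limits. The 6 higher in *lecrk-VI.2-2* were these genes without *ATERDJ3B*. The other disulfide isomerase genes fell outside the limits on the *bak1-5* side, with changes of 0.82 for *PDIL1-2*, 0.63 for *PDIL1-3*, 0.60 for *PDIL2-2* and 0.55 for *PDIL2-3*. Those of *SDF2* and *CRT3*, 0.90 and 1.64 in *lecrk-VI.2-2*, were above the limit there. *ROC3*, for a second cyclophilin, read 8.66, 8.59 and 8.68 after *Psm* in the wild type, 8.60, 8.31 and 8.44 in *bak1-5* and 8.23, 8.18 and 7.86 in *lecrk-VI.2-2*, with changes of 1.47, 1.52 and 0.75.

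Ascorbate, the main soluble antioxidant of leaves, was represented by 3 members at separate steps, with *lecrk-VI.2-2* changes of 0.51 to 0.61 (0.56 to 0.61 without both weak arrays). *CYT1* (*VTC1*) encodes the enzyme that makes GDP-mannose, *VTC5* the one that commits GDP-galactose to ascorbate, and *ATMDAR2* a reductase that recycles oxidized ascorbate. *CYT1* read 8.18, 8.08 and 8.07 after MgCl2 and 10.04, 9.18 and 9.28 after *Psm* in the wild type, 8.02, 7.94 and 7.86 after MgCl2 and 9.07, 9.45 and 8.75 after *Psm* in *bak1-5* and 8.03, 7.68 and 8.25 after MgCl2 and 8.43, 8.97 and 8.08 after *Psm* in *lecrk-VI.2-2*. *ATMDAR2* read 5.39, 5.29 and 5.05 after MgCl2 and 7.23, 6.57 and 6.75 after *Psm*, 4.97, 4.63 and 5.31 after MgCl2 and 6.39, 6.66 and 5.96 after *Psm* and 5.21, 4.63 and 5.06 after MgCl2 and 5.63, 5.86 and 5.20 after *Psm* in the same order of genotypes. In both genes the highest *lecrk-VI.2-2* *Psm* array lay below all wild-type ones, and for *CYT1* it lay inside the range of *bak1-5*.

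*VTC5* was the member closest to the wild-type limit, with changes of 1.01, 1.03 and 0.61 and *Psm* arrays of 6.78, 6.21 and 5.99, 6.35, 6.42 and 6.14 and 5.69, 6.01 and 5.60 in Col-0, *bak1-5* and *lecrk-VI.2-2*. The pathway did not move as a whole. Of the 14 assigned genes 10 were higher and 2 lower in the wild type, 7 higher and 1 lower in *bak1-5*, and 1 higher in *lecrk-VI.2-2*. Without the members 7, 4 and 1 of 11 were higher. That 1 gene was *VTC2*, the paralog of *VTC5*, whose changes of 0.62, 1.38 and 0.98 put the wild type lowest. *VTC4* was 1 of the 2 lower in the wild type, with -1.01, -0.17 and -0.24.

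A set of 6 members encodes enzymes of sulfur, thiol and peroxide metabolism. Their changes ran from 1.22 to 1.91 in the wild type, 1.00 to 1.27 in *bak1-5* and 0.42 to 0.69 in *lecrk-VI.2-2* (0.39 to 0.72 without both weak arrays). *AKR4C8*, for an aldo-keto reductase, read 5.29, 5.21 and 5.37 after MgCl2 and 7.44, 6.98 and 7.16 after *Psm* in the wild type, 5.64, 5.88 and 5.87 after MgCl2 and 7.05, 7.37 and 6.50 after *Psm* in *bak1-5* and 5.63, 5.61 and 5.58 after MgCl2 and 5.97, 6.53 and 5.73 after *Psm* in *lecrk-VI.2-2*. AT1G65820, for a microsomal glutathione transferase, read 6.93, 7.01 and 7.08 after MgCl2 and 8.79, 8.13 and 8.60 after *Psm*, 6.69, 6.65 and 6.46 after MgCl2 and 7.65, 7.83 and 7.57 after *Psm* and 6.93, 6.58 and 6.91 after MgCl2 and 7.22, 7.41 and 7.15 after *Psm* in that order. Its *Psm* arrays did not overlap between the 3 genotypes, whereas those of *AKR4C8* did between the mutants.

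*GGH2*, for a gamma-glutamyl hydrolase, read 7.96, 7.53 and 7.11 after *Psm* in the wild type, 7.33, 7.26 and 6.71 in *bak1-5* and 6.52, 6.83 and 5.89 in *lecrk-VI.2-2*. *SERAT1;1*, for a serine acetyltransferase of cysteine synthesis, was the member closest to the *bak1-5* limit, with changes of 1.75, 1.00 and 0.59. Its second *lecrk-VI.2-2* *Psm* array (7.97) was level with 2 of *bak1-5* (8.02 and 8.03). Changes of *PRXCB*, a peroxidase gene of the oxidative burst, were 1.53, 1.01 and 0.45, on a dim probe set that may also detect its neighbour *PRXCA*. *PMSR2*, for a repair enzyme of oxidized methionine, had 1.22, 1.16 and 0.69. All 10 assigned genes of the list were higher in the wild type, 6 in *bak1-5* and, by limma, 0 in *lecrk-VI.2-2*. In that mutant 5 of them were higher at an unadjusted p below 0.05, as were 1096 of all 22746 probe sets. Of the 4 that were not members 4, 1 and 0 were higher.

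Cell wall and carbohydrate genes formed another 6, with *lecrk-VI.2-2* changes of 0.38 to 0.74 (0.33 to 0.84 without both weak arrays). *ATCSLA15*, of a family of mannan synthases, had the least even signals of the group. The wild type read 3.86, 3.98 and 4.14 after MgCl2 and 8.00, 7.17 and 6.93 after *Psm*, *bak1-5* 3.82, 4.02 and 3.88 after MgCl2 and 5.55, 7.14 and 3.86 after *Psm* and *lecrk-VI.2-2* 3.82, 4.19 and 4.04 after MgCl2 and 4.04, 5.38 and 4.18 after *Psm*. In *bak1-5* the third *Psm* array did not rise above the MgCl2 arrays, which makes its change of 1.61 ± 0.52 (SE) rest on 2 arrays. *PGIP2*, for an inhibitor of microbial pectin-degrading enzymes, read 6.91, 7.14 and 6.50 after MgCl2 and 9.36, 8.65 and 8.61 after *Psm* in the wild type, 7.24, 6.94 and 6.99 after MgCl2 and 8.33, 8.39 and 7.56 after *Psm* in *bak1-5* and 6.91, 6.33 and 7.20 after MgCl2 and 7.21, 8.58 and 6.88 after *Psm* in *lecrk-VI.2-2*. Its highest *lecrk-VI.2-2* *Psm* array exceeded all of *bak1-5*.

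*PPDK*, for pyruvate orthophosphate dikinase, was far more even, 7.11, 6.76 and 6.51 after MgCl2 and 8.23, 8.24 and 8.28 after *Psm* in the wild type, 7.07, 7.03 and 6.71 after MgCl2 and 8.47, 8.45 and 8.48 after *Psm* in *bak1-5* and 7.16, 6.72 and 7.50 after MgCl2 and 7.86, 8.01 and 7.69 after *Psm* in *lecrk-VI.2-2*. AT1G62660, for a vacuolar invertase, had changes of 1.80, 1.14 and 0.72, with *Psm* arrays of 8.06, 7.64 and 7.46, 7.24, 7.26 and 6.33 and 6.54, 7.0 and 5.73. *RHM1*, for a rhamnose synthase of pectin, had 1.56, 1.26 and 0.38, and its *lecrk-VI.2-2* *Psm* arrays (5.20, 5.08 and 4.94) were below those of the wild type (6.50, 6.25 and 5.95) and *bak1-5* (6.10, 6.04 and 5.59). The starch synthase gene *GBSS1* had 1.05, 1.23 and 0.73.

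*RHM1* was 1 of only 4 members lower in *lecrk-VI.2-2* than in *bak1-5* after *Psm* at *q* of 0.05 (0.149% of all probe sets). The others were *ROC7*, AT5G59670 and *cPT4*. In *cPT4*, for a cis-prenyltransferase, the wild type read 6.45, 6.21 and 6.16 after MgCl2 and 7.49, 7.30 and 7.28 after *Psm*, *bak1-5* 7.06, 6.85 and 6.75 after MgCl2 and 8.42, 8.39 and 8.28 after *Psm* and *lecrk-VI.2-2* 7.07, 6.31 and 6.83 after MgCl2 and 7.44, 7.41 and 7.06 after *Psm*. Thus the *Psm* signals of *lecrk-VI.2-2* overlapped those of the wild type, and *bak1-5* was above both after *Psm*. Its MgCl2 arrays in *bak1-5* were also above those of the wild type.

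**Figure D4:**
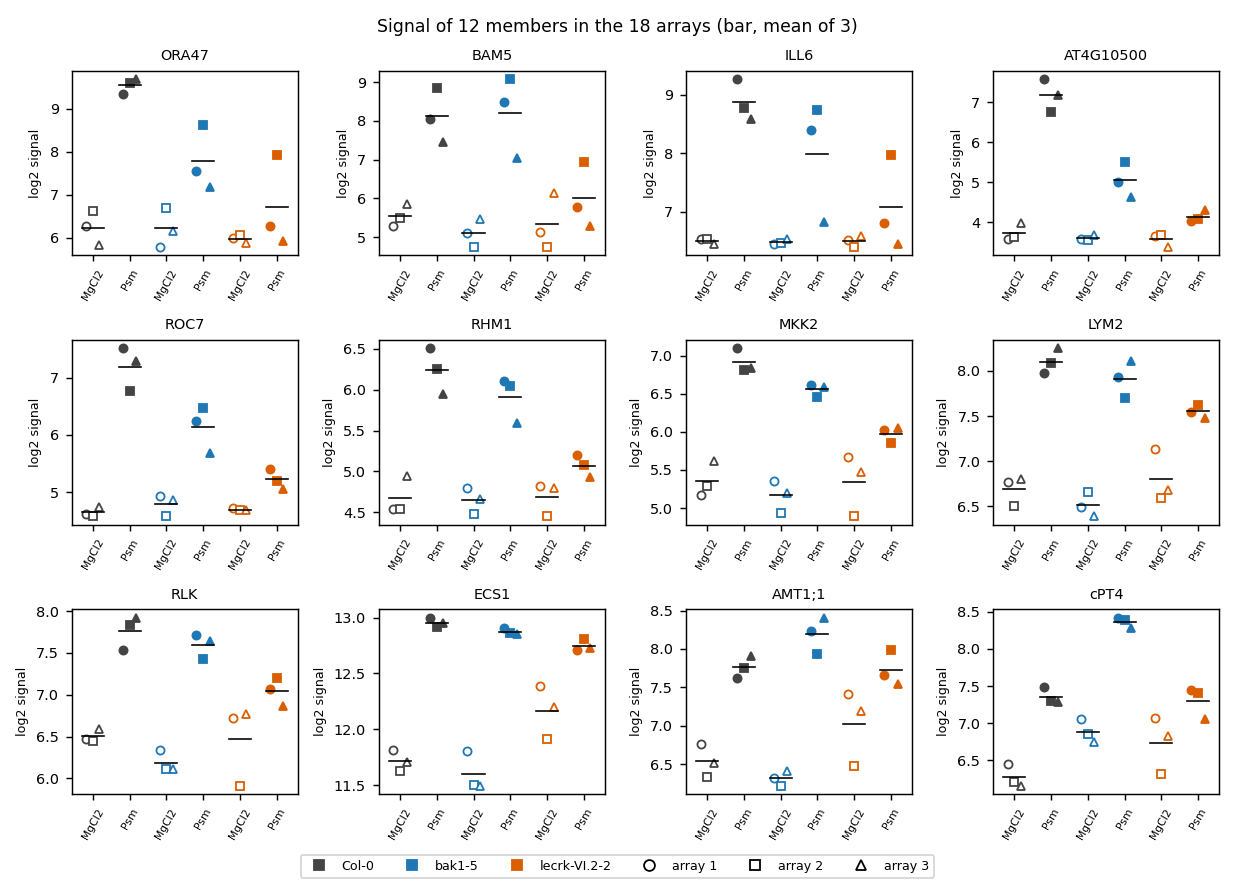
Signal (log2, vertical axis, which does not start at 0) of 12 members in the 18 arrays, open symbols after MgCl2 and filled after *Psm*, with a bar for the mean of 3 and symbol shape for the array number. *ORA47*, *BAM5* and *ILL6* show the high second *Psm* array of *lecrk-VI.2-2* (7.94, 6.93 and 7.97), *ROC7* and *RHM1* a *lecrk-VI.2-2* response below both other genotypes, and *ECS1* and *AMT1;1* a raised MgCl2 signal in that mutant.

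Transport genes numbered 4, with changes from 1.23 to 1.60 in the wild type, 1.01 to 1.87 in *bak1-5* and 0.57 to 0.70 in *lecrk-VI.2-2* (0.49 to 0.64 without both weak arrays). Beside *AMT1;1* they were *VHA-E3*, for a subunit of the vacuolar proton pump, *VDAC1*, for a channel of the outer mitochondrial membrane, and AT2G39210, for a nodulin-like transporter. *VHA-E3* read 7.03, 7.05 and 6.88 after MgCl2 and 9.05, 8.46 and 8.26 after *Psm* in the wild type, 6.71, 6.91 and 6.92 after MgCl2 and 8.34, 8.60 and 7.83 after *Psm* in *bak1-5* and 6.91, 6.54 and 7.0 after MgCl2 and 7.18, 8.02 and 6.95 after *Psm* in *lecrk-VI.2-2*. *VDAC1* read 9.33, 8.62 and 8.86 after *Psm* in the wild type, 8.61, 8.92 and 8.18 in *bak1-5* and 7.76, 8.39 and 7.45 in *lecrk-VI.2-2*, overlapping between the mutants. For AT2G39210 the *Psm* arrays were 7.68, 7.84 and 7.86, 7.86, 7.55 and 7.14 and 7.23, 7.48 and 6.80. The urea transporter gene *DUR3* was just outside the *lecrk-VI.2-2* limit, with 1.32, 1.30 and 0.75.

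*EFE* (ACO4), for the last step of ethylene synthesis, read 7.64, 7.52 and 7.73 after MgCl2 and 9.84, 8.98 and 9.42 after *Psm* in the wild type, 7.33, 7.30 and 7.63 after MgCl2 and 8.57, 8.81 and 8.33 after *Psm* in *bak1-5* and 7.67, 6.84 and 7.60 after MgCl2 and 7.70, 8.29 and 7.40 after *Psm* in *lecrk-VI.2-2*. *ACS6*, for the step before it, was not a member, with 2.28, 0.19 and 1.00. AT3G28270, related to the membrane protein gene *AT14A*, read 6.70, 6.72 and 6.42 after MgCl2 and 10.27, 9.68 and 9.53 after *Psm* in the wild type, 7.48, 7.72 and 7.36 after MgCl2 and 9.14, 9.47 and 8.22 after *Psm* in *bak1-5* and 7.19, 6.46 and 7.62 after MgCl2 and 7.42, 8.72 and 7.34 after *Psm* in *lecrk-VI.2-2*. Here both mutants had the higher MgCl2 means, by 0.90 in *bak1-5* and 0.47 in *lecrk-VI.2-2*.

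The remaining 24 members were on none of the 11 lists, and 5 of them were not assigned to 1 gene. Their wild-type changes ran from 1.04 to 3.26, with medians of 1.36, 1.18 and 0.58 in Col-0, *bak1-5* and *lecrk-VI.2-2*. AT3G48650, annotated as a transcribed pseudogene, read 3.60, 3.65 and 3.49 after MgCl2 and 6.64, 6.84 and 7.02 after *Psm* in the wild type, 3.40, 3.70 and 3.35 after MgCl2 and 4.50, 5.40 and 4.35 after *Psm* in *bak1-5* and 3.54, 3.95 and 3.39 after MgCl2 and 3.92, 4.67 and 3.67 after *Psm* in *lecrk-VI.2-2*. It shared with AT4G10500 a wild-type response well above that of either mutant. The lowest *lecrk-VI.2-2* changes belonged to AT1G64360 (0.33), AT2G29500, for a small heat shock protein (0.33), AT1G15120 (0.36) and *RHM1* (0.38) among genes, and to 246481_s_at (0.37). Without the weak MgCl2 array the *lecrk-VI.2-2* changes of AT1G15120 and 246481_s_at were 0.03 and 0.04. Without the second *lecrk-VI.2-2* *Psm* array they were 0.40 and -0.02, and without both weak arrays 0.14 and 0.40.

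In the genome the 61 members assigned to 1 gene were spread over the 5 chromosomes, with 15, 15, 11, 9 and 11 genes. The closest pairs in gene order were *RLK* with *AKR4C8* and *ROC7* with *cPT4*, each 6 genes apart. Before *Psm* the members were brighter than most probe sets. Their median signal in the wild type after MgCl2 was 5.87, against 4.56 over all, and 4 had no group mean of 6 or more, where 77.7% of all probe sets had none. Those 4 were *PRXCB*, AT2G29500, *PIA1* and 246481_s_at.

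Neighbouring groups, from which, unlike the members, no gene was left out by name, show where the limits fall. The 100 probe sets with a change of at least 1 in all 3 genotypes had median changes of 3.12, 2.36 and 1.45 in Col-0, *bak1-5* and *lecrk-VI.2-2*. The 259 with at least 1 in the wild type and below 0.75 in both mutants had 1.34, 0.33 and 0.29. The members thus had a wild-type median of 1.50, near that of the latter, and lay between both in the mutants. The limits fix only that the members lie above the 259 in *bak1-5* and below the 100 in *lecrk-VI.2-2*. Just inside the wild-type limit were *VTC5* (1.01), AT3G06700 (1.04) and *GBSS1* (1.05), and just outside it, beside *MEK1*, AT1G66100 (0.89) and AT3G13310 (0.88). At the *bak1-5* limit *SERAT1;1*, 254389_s_at and *PRXCB* were inside (1.00, 1.00 and 1.01), and *AT14A*, with *ZAR1* and *PEN3*, outside (0.99). Just below 0.75 in *lecrk-VI.2-2* were *LYM2*, *ROC3* and *PGIP2* (0.75, 0.75 and 0.74), and just above it, with *DUR3*, were 265058_s_at (0.76) and *HSP81-2* (0.77).

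Which probe sets the limits take depended on single arrays. With 1 array left out the limits took between 40 and 113 probe sets. They took 40 without the third and 113 without the second *lecrk-VI.2-2* *Psm* array, 41 without the second and 99 without the third *bak1-5* *Psm* array, and 87 without the second *lecrk-VI.2-2* MgCl2 array. Leaving out any 1 wild-type array gave 61 to 67. The limits held whichever of the 18 arrays was left out for 16 of the 66 members, and without both weak arrays for 56.

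The 16 were AT4G10500, *ROC7*, AT3G60450, *EFE*, AT3G07720, *RHM1*, *GGH2*, AT1G65820, AT3G45620, AT5G44720, AT2G25510, *VSR6*, *RLK*, *ECS1*, *MPK4* and *cPT4*. None of the 5 jasmonate and wound members was among them. AT2G25510, *ECS1* and *cPT4* were, although their *Psm* signal in *lecrk-VI.2-2* was within 0.3 of the wild type.

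**Figure D5:**
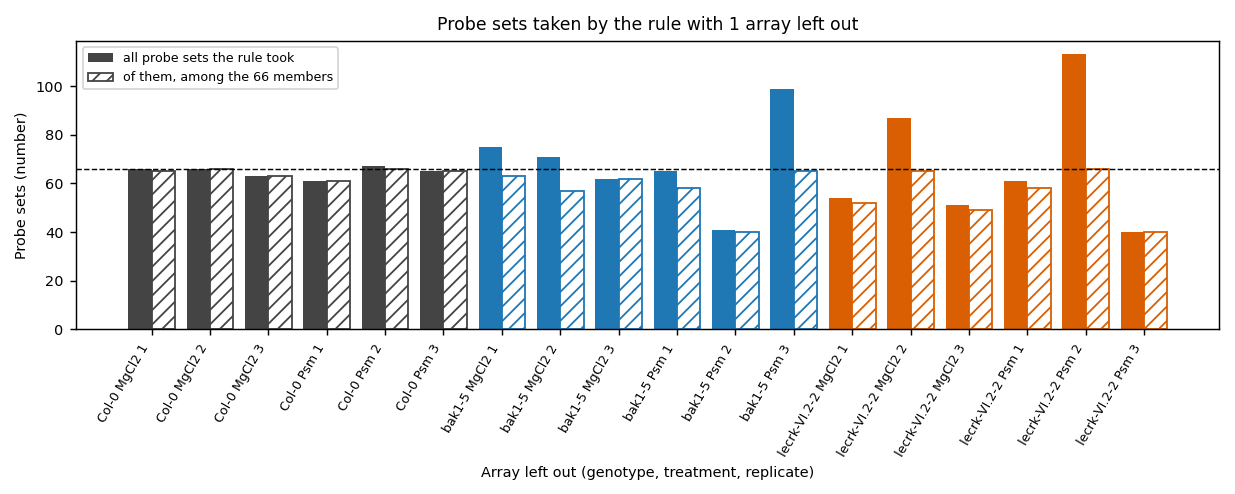
Number of probe sets that met the limits with 1 array left out (filled bars) and how many of them were among the 66 members (hatched bars), by the array left out. The dashed line is at 66, and the counts run from 40 to 113, furthest from it for arrays of the mutants.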

How the data were processed

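Total RNA from systemic leaves was hybridised to 18 Affymetrix ATH1 arrays, with 6 groups of 3. Each deposited value is a log2 signal of a probe set, which the authors obtained by Robust Multichip Analysis (RMA), with the affy package named in the submitters' processing notes, that is with background correction and quantile normalization. Quantile normalization acts on the probes, and the probe-set values still differed in distribution. The share of probe sets at 6 or more ran from 16.0% to 19.6%, so a weak array can still appear as shifts of genes. Scanner files were not used here. There is no sequencing depth behind a value here, and precision is set by how many arrays a group has.

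Of 22810 probe sets, 64 controls were left out. In limma 3.58.1, run under R 4.3.3, group means of all arrays entered 1 model (12 residual degrees of freedom), and *q* values were adjusted by Benjamini-Hochberg over 22746 probe sets within a comparison. The fit was tested on simulated data. Tables and figures were made with Python 3.11.15, pandas 2.3.3 and matplotlib 3.10.9. Standard errors of changes and of their differences come from this fit.

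Gene names came from the platform annotation, brought to current locus names through the RefSeq gene table, or by a match of their 3 changes to the supplementary gene list of the study within 0.00051, whose own values were not reported. Each of its 1998 rows matched 1 probe set. Of 899 probe sets named both ways, 11 disagreed and were left unnamed. These rows are the part of that list held here, sorted by the wild-type change and ending at 0.33, so named genes of a pathway lean to those that rose. Of the 66 members, 26 were named through the platform and 35 by the match, and 5 stood for several or conflicting genes. For a list, 1 probe set per gene was used, the brightest.

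The members, the 11 pathway lists and the 6 marker lists were chosen with earlier results of these data known. The pathway lists were also made with the names of many members known. Named genes were those on a list, the 5 with the largest change in the wild type and in *bak1-5*, the 5 lowest in *lecrk-VI.2-2*, the 3 on each side of a limit and members of a count of 5 or fewer. Those with every array given were up to 4 per list, by their mean change in the wild type and *bak1-5*. Cutoffs of 0.3 and 0.75 between arrays or groups, and the 16 members that kept the limits, were chosen after their values were seen. Other normalizations, filters, weights, limits and left-out arrays were tried. Promoter and protein sequences were not analysed here.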

Additional observations from a re-analysis of the deposited data

Results flagged for a closer look

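In 20 members the change in the wild type exceeded that in *lecrk-VI.2-2* at a *q* value of 0.05 in limma, and in 4 it exceeded that in *bak1-5*. The 4 differences from *bak1-5* were 2.01 for AT4G10500, 1.99 for AT3G48650, 1.46 for *PNP-A* and 1.21 for *ROC7*, on the log2 scale. They are listed because a test of the difference between genotypes passed. The limits that chose the 66 members use the same changes, so the counts describe the group. The differences from *lecrk-VI.2-2* partly follow from its limit of 0.75.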

How the results depend on the processing

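All 18 arrays chose the members, each group has 3 arrays, and a pair of *lecrk-VI.2-2* arrays is weak, so counts in that mutant were the least stable. The share of all probe sets passing was computed for the main fit only, so counts under other settings are not read as results about the members. In the order members higher after *Psm* in *lecrk-VI.2-2*, larger change in the wild type than in *lecrk-VI.2-2*, and larger change in *bak1-5* than in *lecrk-VI.2-2*, the main counts were 8, 20 and 0. Array weights gave 37, 42 and 22, cyclic loess 20, 36 and 4, and a *q* value of 0.01 gave 4 and 9 for the first pair. Without dim probe sets, which leaves fewer tests, the first was 18 and the third 2. The third was 1 with median centring and 10 without both weak arrays. A fit of only the arrays compared gave 0 for the first, with fewer residual degrees of freedom.

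The count of 4 with a larger change in the wild type than in *bak1-5* was 9 in the fit of only the arrays compared, 12 with array weights and 7 without both weak arrays. Members that differed from the wild type after MgCl2, 0 for each mutant, became 4 for *lecrk-VI.2-2* and 1 for *bak1-5* with array weights, 2 and 1 without both weak arrays, and for *bak1-5* 1 with cyclic loess and 3 with only the arrays compared. The limits took 28 probe sets at 1.2 and 146 at 0.8 in place of 1, and 18 at 0.5 in place of 0.75.

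With 1 array left out the limits took 40 to 113 probe sets. Members called higher were 65 to 66 in the wild type, 50 to 64 in *bak1-5* and 3 to 17 in *lecrk-VI.2-2*, where the lowest count was without the second and the highest without the third *Psm* array of *lecrk-VI.2-2*, with 13 without its first MgCl2 array. A larger change in the wild type than in *lecrk-VI.2-2* held for 11 to 40 members: 40 without the second MgCl2 and 31 without the second *Psm* array of *lecrk-VI.2-2*, 11 without its first *Psm* array, 12 without the third MgCl2 or the third *Psm* array of that mutant or the third wild-type *Psm* array, and 13 without its first MgCl2 or the second wild-type MgCl2 array. A larger change in *bak1-5* than in *lecrk-VI.2-2* held for 0 to 12, and members that differed after MgCl2 were 0 to 1 for each mutant, all highest without the second MgCl2 array of *lecrk-VI.2-2*. A larger change in the wild type than in *bak1-5* held for 3 to 8, with 8 without the second *Psm* array of either mutant. The median changes ran from 1.42 to 1.60, 1.12 to 1.36 and 0.45 to 0.71 in Col-0, *bak1-5* and *lecrk-VI.2-2*. The cause was not tested for array weights and cyclic loess.

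Replicate numbers shared by the groups did not pair the arrays: of 45 same-numbered pairs 8 had a correlation of deviations over 0.1, with a median of -0.02. With the replicate number as a block 65, 62 and 11 members were higher in Col-0, *bak1-5* and *lecrk-VI.2-2*, 23 and 5 had a larger wild-type change than in *lecrk-VI.2-2* and *bak1-5*, and 0 a larger one in *bak1-5* than in *lecrk-VI.2-2*. The alternatives on promoter motifs and proteins were not run.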
